A study of Mus musculus with 2 samples.

Results

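The 29 genes described here encode the enzymes that build cholesterol from acetyl-CoA, the SREBP machinery that controls those enzymes, and a pair of further sterol-linked genes, Mylip and Stard4. They were chosen by symbol from knowledge of the pathway, and all 29 were found among the 55536 genes of the deposited gene tables. The list is not a complete account of the pathway. The tissue was adrenal gland, taken as total RNA from 2 females of the B6CASTF1/J strain, a cross of C57BL/6J with CAST, which were adults aged 8 to 10 months. Both animals belong to 1 group with no treatment named, and 300 ng of RNA with spike-in RNA added went into each library. The labels number the animal of replicate 1 as 1 and that of replicate 2 as 3. The labels give the same donor code to both animals but separate animal numbers, so the spread between them may in part be technical.

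The adrenal cortex makes steroid hormones from cholesterol, which its cells take up from lipoproteins, release from stored esters or make themselves. Synthesis runs from acetyl-CoA through mevalonate to farnesyl pyrophosphate, then through squalene to lanosterol, and in a last series of steps from lanosterol to cholesterol. SREBP transcription factors are held in the endoplasmic reticulum by SCAP and the INSIG proteins when sterols are plentiful. When sterols are low, SCAP carries them to the Golgi, where the site-1 and site-2 proteases release the part that enters the nucleus and switches on the genes of sterol and fatty acid synthesis.

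Depth was 40453707 expected counts in replicate 1 and 34319787 in replicate 2. In replicate 1 the 29 genes took 116551 of the gene counts, a share of 0.289%, and in replicate 2 they took 92397, a share of 0.270%. The Wilson 95% intervals of these shares, which cover counting error only, ran from 0.287% to 0.290% and from 0.268% to 0.272%. The labelled tissue was checked against its markers. The 8 cortex markers summed to 26700 TPM (a level scaled by transcript length and by library total) in replicate 1 and 27840 in replicate 2, and 7 chromaffin markers to 2178 and 1963 TPM. The 9 adipocyte markers summed to 1594 TPM in replicate 1 and 822 in replicate 2, none at 0, and 6 fibroblast markers to 157 and 108 TPM. The sums for macrophages (70.2 and 70.8 TPM) and endothelium (186 and 181 TPM) lay close together, while those for hepatocytes (6.96 and 22.7 TPM) and Schwann cells (8.89 and 5.37 TPM) were low. The list of 5 kidney markers summed to 0.45 and 0.44 TPM, all of it Aqp2; Umod, Slc12a1 and Slc34a1 were among those at 0 in both libraries. In bulk tissue, fewer cells of a type and less RNA per cell cannot be told apart.

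RefSeq promoter windows (GRCm38.p6, 250 bases before to 50 after each gene start) were matched for 25 of the 29 genes. Fdps, Fdft1, Sqle and Stard4 had no entry. Each window was searched on both strands for the core of the sterol regulatory element (TCACNCCAC), the box read by NF-Y (CCAAT, or ATTGG on the other strand), the SP1 box (GGGCGG) and the E-box (CACGTG). No one of these motifs contains another. NF-Y and SP1 are known as partners of SREBPs at sterol genes. The NF-Y box stood in the windows of 21 of 25 genes (84.0%), against 41.1% of 27025 genes with a window and 42.7% of 9613 expressed protein-coding genes; 11 of the 25 held it on the gene's own strand. The SP1 box stood in 22 (88.0%), against 38.2% of all genes and 69.9% of expressed coding genes. The E-box stood in 5 (20.0%; Hsd17b7, Sc5d, Dhcr7, Scap and Insig1), against 8.09% and 11.7%. The sterol element core stood in Hmgcs1 alone, against 1.44% of all genes and 1.44% of expressed coding genes. Genes with several starts have several windows: per window the NF-Y box was in 22 of 33 for these genes, or 66.7%, and in 37.4% of all 32851 windows. A match is a string of letters and not a shown binding site.

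Stretches of 100 bases upstream of a gene start and outside annotated exons are given for 6 genes, 5′ to 3′ on the strand of the gene, with the sterol element core and the NF-Y box in capitals. Hmgcs1 holds the core, at position -137 from its start. Mvk, Mvd and Hsd17b7 show NF-Y boxes in enzyme genes that differed little (Mvk) or more (Mvd, Hsd17b7) between the animals. Srebf1 is shown at the start of its shorter transcript, and Mbtps1 is 1 of the 4 matched genes with no NF-Y box. They lie at chr13:119690174-119690273 (plus strand, Hmgcs1), chr5:114444169-114444268 (plus, Mvk), chr8:122443423-122443522 (minus, Mvd), chr1:169969242-169969341 (minus, Hsd17b7), chr11:60210472-60210571 (minus, Srebf1) and chr8:119558762-119558861 (minus, Mbtps1).
Hmgcs1: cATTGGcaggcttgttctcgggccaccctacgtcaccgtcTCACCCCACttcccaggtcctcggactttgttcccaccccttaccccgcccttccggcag
Mvk: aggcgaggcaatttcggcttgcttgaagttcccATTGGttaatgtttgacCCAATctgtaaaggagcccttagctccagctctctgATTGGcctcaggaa
Mvd: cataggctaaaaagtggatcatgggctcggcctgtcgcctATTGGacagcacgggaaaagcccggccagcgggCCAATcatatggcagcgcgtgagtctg
Hsd17b7: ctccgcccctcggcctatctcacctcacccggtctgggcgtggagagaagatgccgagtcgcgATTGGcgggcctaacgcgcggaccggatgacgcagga
Srebf1: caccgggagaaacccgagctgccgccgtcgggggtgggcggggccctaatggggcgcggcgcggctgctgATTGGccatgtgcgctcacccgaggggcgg
Mbtps1: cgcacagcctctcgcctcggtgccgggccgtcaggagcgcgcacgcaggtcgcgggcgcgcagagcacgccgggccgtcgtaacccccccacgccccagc

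**Figure D1:**
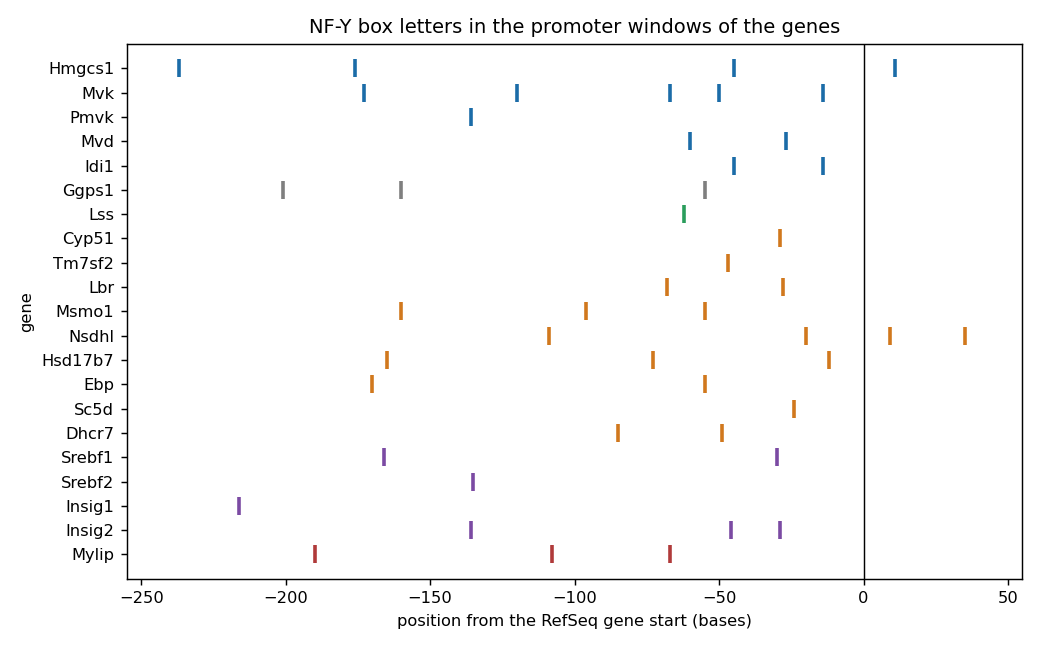
Positions of the NF-Y box (CCAAT or its complement) in the promoter windows of the genes that hold it, in bases from the RefSeq gene start; each tick is 1 match at its first base, coloured by pathway step as in the plot of levels. Mvk held 5 matches in its window and Hmgcs1 held 4.

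All 29 genes were expressed in both glands at 1 TPM or more, and each had a mean expected count of at least 100. Dhcr7, which reduces the immediate precursor to cholesterol, was the highest. It stood at 430 TPM in replicate 1 and at 409 in replicate 2, above 99.4% of the 12331 protein-coding genes at 1 TPM or more, and made up 33.3% and 33.6% of the summed TPM of the 29 genes. Next came Fdps, which Dhcr7 exceeded 3.96-fold in replicate 1 and 3.87-fold in replicate 2. Of the 29, 2 reached 100 TPM, 5 reached 50 TPM and 24 reached 10 TPM on the mean of both libraries. The other 5 (Tm7sf2, Mvd, Lbr, Pmvk and Mylip) lay under 10 TPM.

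**Figure D2:**
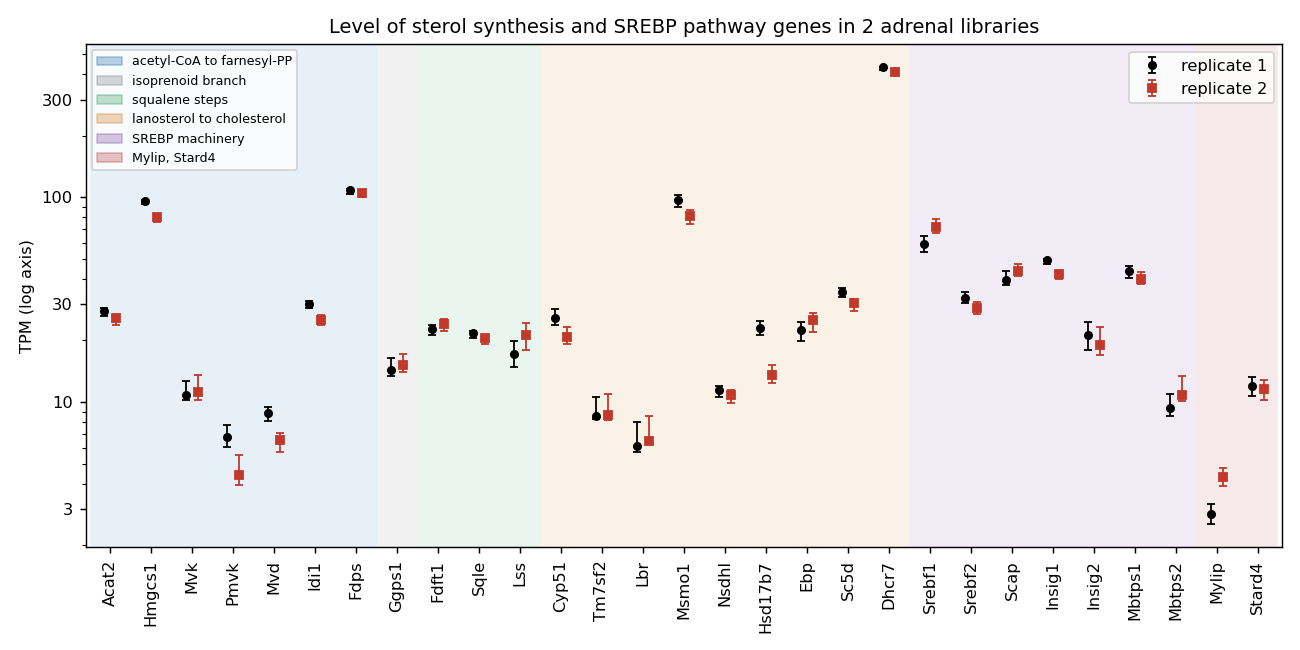
TPM on a log axis of the 29 genes in pathway order in replicate 1 (circles) and replicate 2 (squares), with bars for the authors' deposited TPM bounds; shading marks the pathway step. Dhcr7 stands at 430 and 409 TPM, and Mylip, the lowest, at 2.85 and 4.29 TPM.

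The authors' tables give each TPM a lower and an upper bound of estimation within its library, and bounds are called apart below where those of the libraries do not overlap. The early enzymes lead from acetyl-CoA to farnesyl pyrophosphate. Hmgcs1 (chromosome 13, 119690379 to 119708260, mm10), the cytosolic HMG-CoA synthase whose match to the sterol element core is printed above, stood at 96.4 TPM in replicate 1 and at 79.8 in replicate 2. Fdps (chromosome 3, 89093588 to 89101959), farnesyl pyrophosphate synthase, stood at 109 and 105 TPM, and its deposited bounds overlapped. Idi1 (chromosome 13, 8885501 to 8892451), which isomerises the first isoprene unit, stood at 30.02 and 25.15 TPM, and Acat2, the cytosolic thiolase that joins acetyl-CoA units, at 28.0 and 25.7 TPM. The mevalonate steps between them were expressed at lower levels. Mvk, mevalonate kinase, stood at 10.9 and 11.2 TPM. Mvd (chromosome 8, 122433601 to 122443422), the decarboxylase, stood at 8.89 and 6.52 TPM, and Pmvk (chromosome 3, 89454541 to 89469013), phosphomevalonate kinase, at 6.73 and 4.43 TPM on 286 and 159 counts. The bounds of Hmgcs1, Idi1, Mvd and Pmvk lay apart, all lower in replicate 2, while those of Acat2, Mvk and Fdps overlapped.

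Ggps1 makes geranylgeranyl pyrophosphate, a branch away from sterols that serves protein prenylation, and stood at 14.4 and 15.1 TPM. Over all transcripts of each gene, the squalene steps were expressed at like levels to each other. Fdft1, squalene synthase, stood at 22.7 and 24.2 TPM. Sqle, squalene epoxidase, stood at 21.7 and 20.5 TPM, and Lss, which closes the ring to lanosterol, at 17.3 and 21.4 TPM. The deposited bounds of these 4 genes overlapped between the libraries.

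The steps from lanosterol to cholesterol spanned the widest range of levels. Msmo1 (chromosome 8, 64718139 to 64733792), the C4-methyl sterol oxidase, stood at 97.0 TPM in replicate 1 and at 81.0 in replicate 2. Sc5d, the lathosterol desaturase, stood at 34.4 and 30.5 TPM. Cyp51 (chromosome 5, 4081145 to 4104746), the lanosterol 14-demethylase, stood at 25.7 and 20.7 TPM, and Ebp, the sterol isomerase, at 22.5 and 25.1 TPM. Hsd17b7 (chromosome 1, 169949535 to 169969241), the 3-keto sterol reductase, stood at 22.9 and 13.5 TPM. Nsdhl, the C4 decarboxylating dehydrogenase, stood at 11.5 and 10.9 TPM. The C14 reductase step is served by a pair of genes, of which Tm7sf2 stood at 8.59 and 8.62 TPM and Lbr, also a protein of the inner nuclear membrane, at 6.14 and 6.45 TPM. Dhcr7 (chromosome 7, 143823145 to 143848410), this last reductase, had the level given above on 35404 and 28500 counts. Bounds of Cyp51, Msmo1, Hsd17b7, Sc5d and Dhcr7 lay apart, each lower in replicate 2, and those of Tm7sf2, Lbr, Nsdhl and Ebp overlapped.

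Among the regulators, Srebf1 (chromosome 11, 60199089 to 60222581), the SREBP form known mostly for fatty acid genes, was the highest, at 58.9 TPM in replicate 1 and at 72.0 in replicate 2. Srebf2 (chromosome 15, 82147181 to 82205379), the form known mostly for sterol genes, stood at 32.3 and 28.8 TPM. Scap, the escort protein, stood at 39.3 and 43.6 TPM. Insig1 (chromosome 5, 28071363 to 28078662), a retention protein and itself a target of SREBPs, stood at 49.5 and 42.4 TPM, and its relative Insig2 at 21.4 and 19.0 TPM. Mbtps1, the site-1 protease, stood at 43.5 and 39.9 TPM and Mbtps2, the site-2 protease, at 9.36 and 10.8 TPM. Srebf1 was higher and Insig1 lower in replicate 2 with bounds apart; the other 5 overlapped.

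The paralogues and partner proteases held the same order in both animals. The ratio of Srebf1 to Srebf2 was 1.82 in replicate 1 and 2.50 in replicate 2 (mean 2.16 ± 0.475, SD, n = 2). Insig1 exceeded Insig2 by 2.32 and 2.23 times (2.27 ± 0.0643), and Mbtps1 exceeded Mbtps2 by 4.65 and 3.68 times (4.16 ± 0.686). Lbr stood at 0.715 and 0.748 of Tm7sf2 (0.732 ± 0.0237). A second deposited transcript table was made from the reads and a transcript index in place of an alignment. In that index-based table, summed per gene, the first 3 ratios stayed above 1 but were smaller: 1.35 and 1.89 for Srebf1, 1.55 and 1.46 for Insig1, and 3.87 and 2.74 for Mbtps1. Lbr over Tm7sf2 became 0.972 and 1.23, so the order of that pair depended on the table and on the animal.

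Mylip (chromosome 13, 45389742 to 45412022), a ubiquitin ligase that targets lipoprotein receptors for degradation and is induced by the sterol-sensing LXR receptors, was the lowest of the 29. It stood at 2.85 TPM in replicate 1 and at 4.29 in replicate 2, on 321 and 420 counts, with bounds apart. Stard4, a cytosolic sterol carrier, stood at 11.9 and 11.6 TPM with overlapping bounds.

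By class, the regulators had the highest median level and the squalene and late steps the lowest of the 4 classes with 3 or more genes. The median over the 7 early genes was 28.0 TPM in replicate 1 and 25.2 TPM in replicate 2 (26.6 ± 1.99, SD, n = 2). It was 21.7 and 21.4 TPM for the 3 squalene genes (21.6 ± 0.276), 22.9 and 20.7 TPM for the 9 late genes (21.8 ± 1.53) and 39.3 and 39.9 TPM for the 7 regulators (39.6 ± 0.368). The late median was 0.819 of the early median in replicate 1 and 0.824 in replicate 2. The regulator median lay above the others in both animals, while the squalene and late medians changed order between them. Within 3 of the classes the genes were spread over more than the class medians were: early genes ran from 5.58 TPM (Pmvk) to 107 TPM (Fdps) on the mean, late genes from 6.29 TPM (Lbr) to 419 TPM (Dhcr7), and regulators from 10.1 TPM (Mbtps2) to 65.4 TPM (Srebf1). Over all their transcripts the 3 squalene genes were close together, from 19.3 TPM (Lss) to 23.4 TPM (Fdft1). On transcripts annotated as protein coding they were not. There Lss stood at 6.65 TPM in replicate 1 and at 5.72 in replicate 2, below Fdft1 (18.9 and 18.4 TPM) and Sqle (21.6 and 19.6 TPM). Without Dhcr7 the late median was 22.7 and 17.1 TPM.

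Ranked by mean TPM over both libraries, the 29 genes formed 28 neighbour pairs. In 12 pairs the lower of the 2 values of one gene lay above both values of the next, and in 16 pairs the values overlapped. At the top of the order Dhcr7 (420 ± 15.2 TPM) lay above Fdps (107 ± 2.17) and Fdps above Msmo1 (89.0 ± 11.3). Msmo1 and Hmgcs1 (88.1 ± 11.7) could not be ordered, and both lay above Srebf1 (65.4 ± 9.22), which lay above Insig1 (46.0 ± 5.03) in these tables. From Ebp (23.8 ± 1.84) down to Ggps1 (14.8 ± 0.523) no neighbours were separated. At the lower end Lbr (6.30 ± 0.219) and Pmvk (5.58 ± 1.63) overlapped, and Pmvk lay above Mylip (3.57 ± 1.02).

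The ratio of the libraries was taken as log2 of replicate 2 over replicate 1 on expected counts scaled by TMM, a factor that evens out library composition, with 0.5 added. The 2 animals are 1 group, so there is no test between them. No member was 2-fold apart with separate bounds, a difference shown by 1.19% of the 12645 genes with a mean count of 100 or more. At 1.5-fold, Pmvk and Hsd17b7 were apart (2 of 29, 6.9%, against 5.02% of all genes). Pmvk was 1.63-fold and Hsd17b7 1.60-fold higher in replicate 1.

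More members were lower in replicate 2 than higher. The ratio was below 0 for 22 of 29 (75.9%), against 55.7% of all genes tested, with a median of -0.17 against -0.03 for all genes. On the deposited TPM, 18 of the 29 had a ratio below 0, with a median of -0.08. The median of all genes on that measure was 0.07, a shift of 0.1, and 22 of the 29 lay below it. On the scaled counts 21 lay below the median of all genes. Bounds of TPM were apart and lower in replicate 2 for 10 members (34.5%, against 9.31% of all genes) and apart and higher for 2, Srebf1 and Mylip (6.9%, against 18.1%). All genes were not matched to the members for count. With the bounds centred on the median ratio of all genes, a scaling added after the data were seen, the members apart became 14 lower (48.3%, against 14.9%) and 1 higher, Mylip (3.45%, against 11.3%). The 4 that joined were Acat2, Fdps, Sqle and Srebf2, and Srebf1 then overlapped.

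The ratios are given here by class, beside a median of -0.03 and 55.7% below 0 for all genes tested. All 7 early genes had a ratio below 0, from -0.70 (Pmvk) to -0.10 (Mvk), with a median of -0.37 and values of -0.54 for Mvd, -0.40 for Hmgcs1 and -0.37 for Idi1. Of the 9 late genes 7 were below 0, with a median of -0.18; Hsd17b7 was at -0.67, Cyp51 at -0.35 and Sc5d at -0.30, while Lbr (0.09) and Ebp (0.07) were above 0. Dhcr7 differed by -0.17, or 1.12-fold. Regulators had a median of -0.02 with 4 of 7 below 0; Insig1 was at -0.38 and Srebf2 at -0.29, and Srebf1 (0.11), Mbtps2 (0.08) and Insig2 (0.02) were above. The 3 squalene genes lay between -0.17 (Sqle) and 0.01 (Lss). On counts of transcripts annotated as protein coding they were lower, at -0.12 (Fdft1), -0.24 (Sqle) and -0.57 (Lss), against a median of -0.06 for all genes. Mylip, at 0.53, was the highest of the 29 and Stard4 was at -0.25. Whether the classes differ from each other was not tested.

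**Figure D3:**
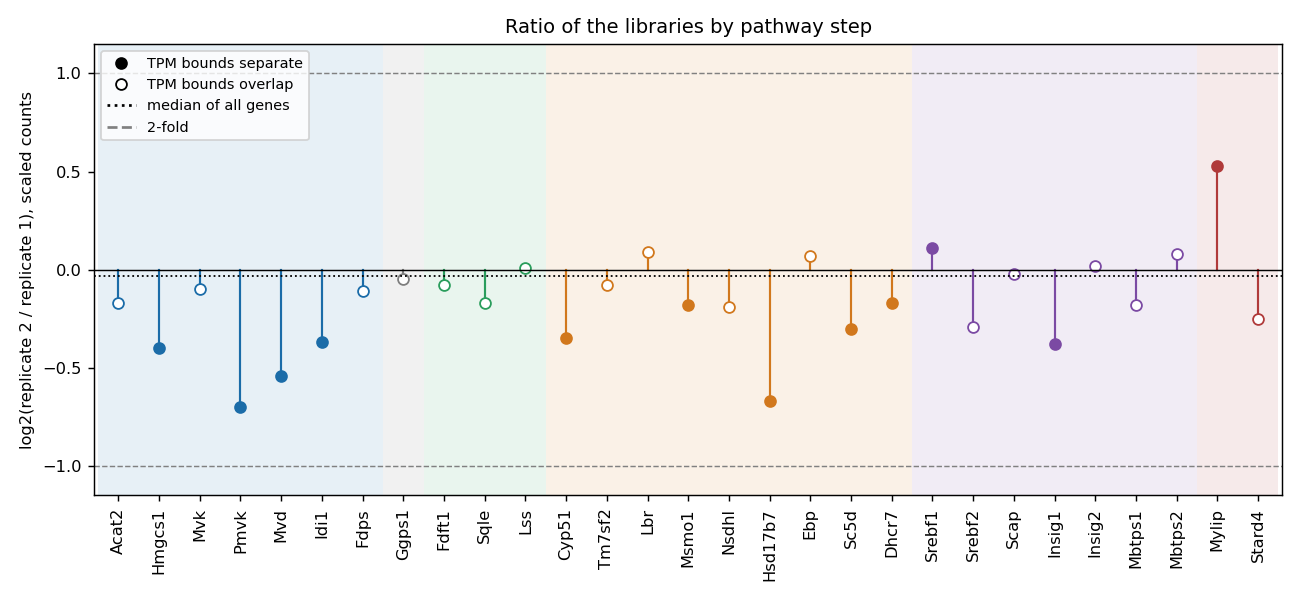
Log2 ratio of replicate 2 over replicate 1 on TMM-scaled expected counts for the 29 genes in pathway order; filled points have separate TPM bounds, the dotted line is the median of all genes (-0.03) and the dashed lines mark 2-fold. No point reaches a dashed line; Pmvk (-0.70) is the lowest and Mylip (0.53) the highest.

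Other genes of lipid and isoprenoid metabolism were set beside the sterol genes. Of 16 genes of the fatty acid branch known as SREBP-1 targets, 14 had a ratio below 0, against 55.7% of all genes tested, with a median of -0.32 against -0.03. The bounds of 10 were apart and lower in replicate 2 and those of 4 apart and higher, against 9.31% and 18.1% of all genes. Of those 4, Acly (-0.03), Scd2 (-0.03) and Fads2 (-0.06) had scaled ratios below 0, and Elovl5 stood at 0.02. The bounds belong to TPM without that scaling. They are narrow at high counts: those of Acly ran from 578 to 590 TPM in replicate 1 and from 618 to 632 in replicate 2. For Acly, Scd2 and Fads2 the TPM itself lay above its upper bound in both libraries. All genes were not matched to the list for count. Scd1, the stearoyl-CoA desaturase, was the 1 gene of this list that was 2-fold apart, at 544 TPM in replicate 1 and at 293 in replicate 2 (-1.08). The 3 highest of the list by mean TPM were Fads2 (853 and 871 TPM, a desaturase), Acly (593 and 638 TPM, which makes cytosolic acetyl-CoA) and Me1 (445 and 422 TPM, the malic enzyme that supplies NADPH). Their ratios were -0.06, -0.03 and -0.17. Over 6 genes for cytochrome b5 forms, their reductases and P450 partners the median was -0.14 with 5 below 0. The highest were Cyb5b (256 and 229 TPM), Pgrmc1 (197 and 194 TPM) and Cyb5a (178 and 171 TPM). The 9 genes of sterol-driven protein degradation had a median of -0.06 with 5 below 0, and among them were Rnf145 (29.7 and 33.2 TPM) and Erlin2 (27.7 and 31.2 TPM). The 13 genes that use isoprenoids had a median of -0.02 with 9 below 0, led by Fnta (39.1 and 39.8 TPM), Rabggtb (26.7 and 27.7 TPM) and Coq2 (27.9 and 26.2 TPM). The medians of these last 3 lists stand beside the same -0.03, and their counts below 0 beside the same 55.7%, of all genes. None of the 3 held a gene that was 2-fold apart.

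Adipocyte markers were also lower in replicate 2. All 9 had a ratio below 0, with a median of -1.03, 5 were 2-fold apart (Adipoq, Fabp4, Cfd, Cidea and Ucp1) and the bounds of 8 were apart; Lep, at -0.01, overlapped. All 6 fibroblast markers were below 0, with a median of -0.55. The 8 cortex markers had a median of -0.02 with 4 below 0, and the 7 chromaffin markers a median of -0.17 with 7 below 0. Of all genes tested, 55.7% had a ratio below 0, with a median of -0.03. The share 2-fold apart was 1.19%, and the share with bounds apart and lower was 9.31%. The part of RNA from any of these cell types in the lower values of the sterol genes was not tested.

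**Figure D4:**
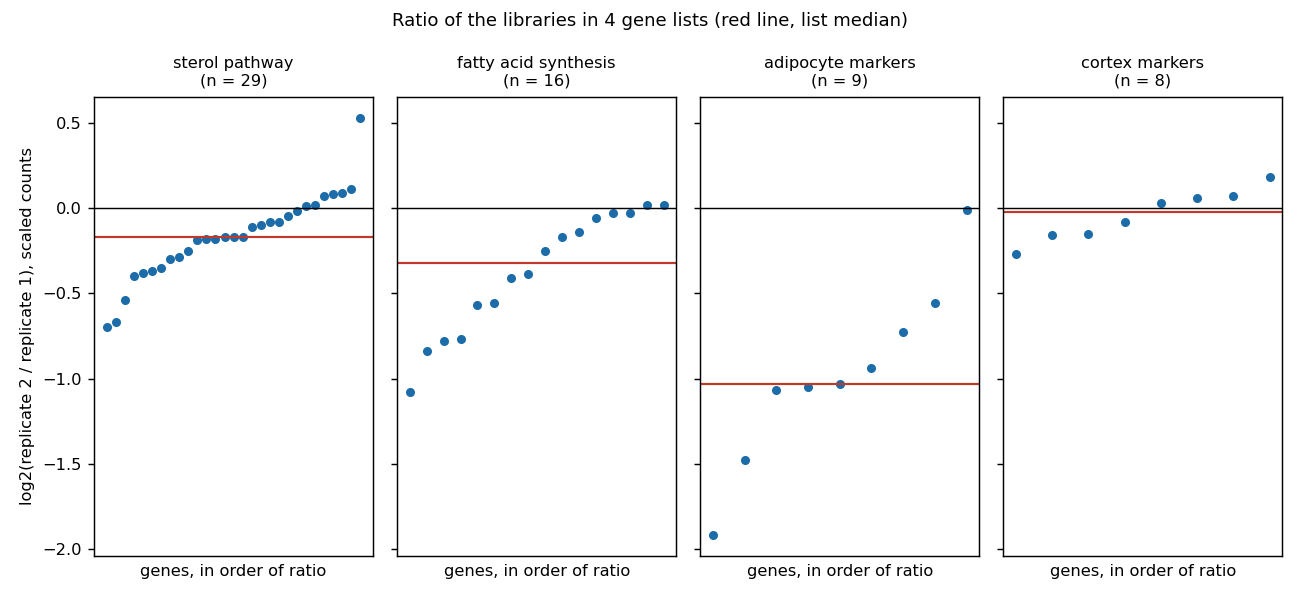
Log2 ratio of replicate 2 over replicate 1 on TMM-scaled expected counts for the genes of 4 lists, each in order of ratio; the red line is the list's median and the black line is 0. Medians are -0.17 for the 29 sterol pathway genes, -0.32 for 16 fatty acid genes, -1.03 for 9 adipocyte markers and -0.02 for 8 cortex markers.

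Each of the 29 genes has several annotated transcripts, and 27 had the same highest transcript in both libraries. The index-based table also gave the same one in both libraries for 27, and both tables and both libraries agreed for 24. Hmgcs1-202 held 79.1% of the gene's TPM in replicate 1 and 68.5% in replicate 2, but in the index-based table Hmgcs1-201 was the highest, at 77.2% and 73.3%. These forms start close together, at 119690464 and 119690446, and both are annotated as protein coding. For Mbtps1 the alignment-based table put 80.0% and 76.9% on Mbtps1-201, against 31.0% and 38.4% in the index-based table. For Acat2 the share of Acat2-201 was 53.3% in replicate 1 and 71.4% in replicate 2, and that of Acat2-204 40.9% and 22.1%; both are annotated as protein coding.

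Transcripts of Srebf1 came from several starts. Srebf1-201, whose first exon begins at 60220604 on the minus strand, stood at 24.9 TPM in replicate 1 and at 28.0 in replicate 2. Srebf1-207, a coding form whose start at 60210465 lies beside the promoter stretch printed above, stood at 5.31 and 8.33 TPM, and at 8.53 and 11.5 TPM in the index-based table. Srebf1-204, a noncoding processed transcript that starts at 60222581, stood at 13.0 and 19.2 TPM in the alignment-based table and at 0 in both libraries of the index-based one. The level of Srebf1 as a whole also depended on the table. It was 43.0 and 49.8 TPM in the index-based table, against 58.9 and 72.0 TPM. Other members differed too: Scap was lower in the index-based table, at 28.6 and 30.9 TPM against 39.3 and 43.6. Dhcr7 was higher there, at 508 and 463 TPM against 430 and 409. The part of Srebf1-204 in the difference of Srebf1 was not tested. The place of Srebf1 as the highest regulator depended on the table too. In the index-based table Insig1 stood at 43.6 TPM in replicate 1, above Srebf1, and at 37.0 in replicate 2, below it. On coding transcripts of the alignment-based table Srebf1 stood at 33.6 and 39.0 TPM, against 48.3 and 39.04 TPM for Insig1. On that measure Scap, at 37.0 and 41.6 TPM, lay above Srebf1 in both libraries. Mbtps1, at 36.2 and 32.9 TPM, lay above Srebf1 in replicate 1 only.

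Transcripts annotated as noncoding took a sizeable part of some genes. Lss was the most extreme: coding transcripts held 38.5% of its TPM in replicate 1 and 26.8% in replicate 2, and retained introns 36.8% and 46.5%. On scaled counts Lss as a whole differed by 0.01, while its coding transcripts differed by -0.57. For Ebp, Ebp-202, a retained intron form, held 32.6% and 39.6%, and the coding share was 61.7% and 60.4%. For Srebf1 the coding share was 57.0% and 54.2%. Hsd17b7 went the other way, with 78.5% and 91.3%, since its processed transcript Hsd17b7-204 stood at 4.78 TPM in replicate 1 and at 0.85 in replicate 2; its coding transcripts alone differed by -0.62. Of the 26 members with a noncoding transcript, 17 had a lower coding share in replicate 2 (65.4%), against 63.8% of 9547 protein-coding genes, so this share was near that of all genes. The median coding share was 90.3% in replicate 1 and 91.3% in replicate 2 for the members, and 88.0% and 85.3% for all such genes. Counted on coding transcripts only, an alternative added after the data were seen, 23 of 29 members had a ratio below 0, against 60.6% of 11634 genes, with a median of -0.23 against -0.06.

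**Figure D5:**
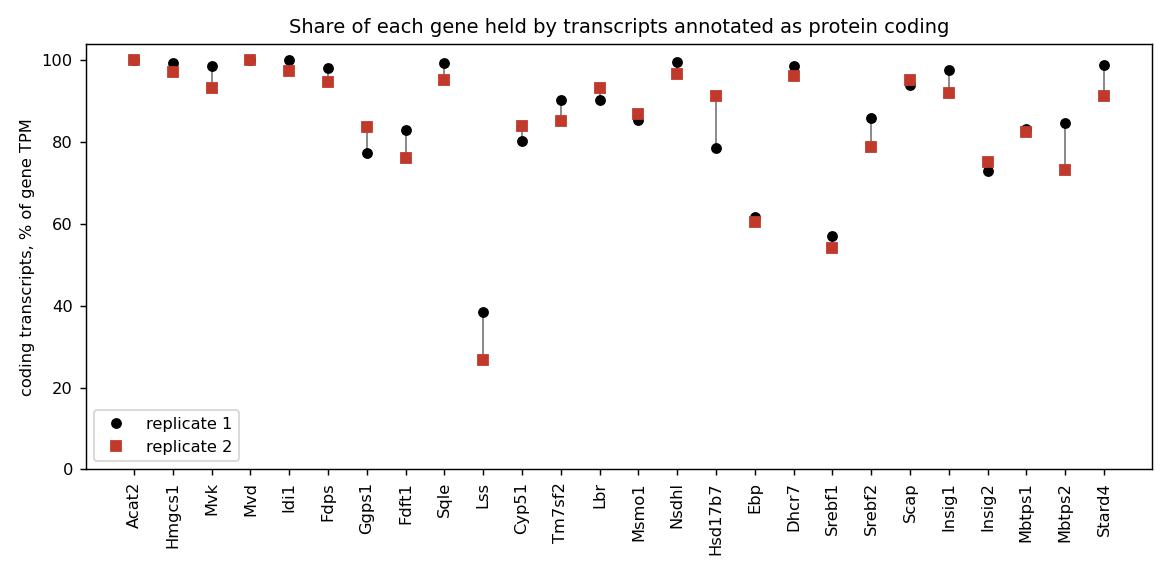
Percent of each gene's TPM held by transcripts annotated as protein coding in replicate 1 (circles) and replicate 2 (squares), for the 26 genes with a noncoding transcript, in pathway order. Lss is the lowest, at 38.5% and 26.8%, and Hsd17b7 shows the largest gain in replicate 2, from 78.5% to 91.3%.

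Reads of some members may be shared with other genes. Gene counts were whole numbers in both libraries for 23 members, and 6 (Acat2, Idi1, Fdps, Fdft1, Tm7sf2 and Mbtps2) had fractional counts, so part of their reads was divided among genes. Among relatives of Acat2, Acat3 stood at 0.34 and 0.39 TPM, while Acat1, the mitochondrial thiolase, stood at 39.1 and 31.8 TPM, above Acat2 itself, on the whole counts of 4423 and 2888. Idi2, the relative of Idi1, was at 0 in both libraries. On the other strand, 6 members overlap a gene at 1 TPM or more: Mvd overlaps Gm20388, Ggps1 overlaps Arid4b, Fdft1 overlaps Ctsb, Cyp51 overlaps Akap9, Srebf1 overlaps Rai1 and Mbtps2 overlaps Gm6568. Ctsb, at 534 and 571 TPM, was the highest of these partners. None of the sources used here states whether strand entered the counting, so the values of these 6 genes are uncertain. On the same strand, the highest partner was Vps51, at 22.8 and 24.9 TPM, which overlaps Tm7sf2. Strand cannot separate reads of that pair, so the value of Tm7sf2 is uncertain as well.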

How the data were processed

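Each library had a gene table and a transcript table from an alignment and a transcript table from an index (mm10, GENCODE M21, per the series notes deposited with the tables). No source used here names the programs behind them. Expected counts were deposited without normalization, per the file headers. The authors scaled TPM so that every feature of the library, from genes to tRNAs and spike-ins, shares in the total. FPKM, relative to length and depth, was deposited beside TPM. The percent of a gene held by a transcript was also deposited, as were lower and upper bounds of TPM, recorded as a score because the level of the interval is not stated.

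Members and gene lists were chosen with earlier results of these data known. Members are the 29 listed symbols; all are named. Of each other pathway list the 3 genes highest by mean TPM and any called 2-fold are named, and of marker lists the sums; some genes that this rule would name are not reported here. Genes named for transcripts, shared reads or windows were chosen after their values were seen.

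Log2 ratios are replicate 2 over replicate 1 of expected counts scaled by edgeR 4.0.16 TMM factors (R 4.3.3), with a pseudocount of 0.5 and a mean count of at least 100. A 2-fold call also needed separate bounds. With 1 group of 2 libraries no p-values were computed. DESeq2 1.42.0 size factors were an alternative. Depth was 40453707 and 34319787 counts, and 3 counts correspond to 0.0743 and 0.0876 CPM of gene counts. Only the log2 ratio and its 2-fold limit were tested on simulated counts, which held counting error but no variation between animals. Python 3.11.15 was used with pandas 2.3.3, numpy 2.4.6, matplotlib 3.10.9 and scipy 1.17.1. Promoter bases came from RefSeq (GRCm38.p6).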

Additional observations from a re-analysis of the deposited data

How the results depend on the processing

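Over 17 results and 79 alternatives, 59 values were counted as kept, 19 as moved and 1, Lbr over Tm7sf2, as reversed. Kept does not mean unchanged. Members with a ratio below 0 went from 22 to 18 on the deposited TPM, and members apart and lower from 10 to 14 with centred bounds. A value from 1 library always lies within the SD of the 2 around their mean, so leaving 1 out could not count as moved. Ratios between genes could not move with FPKM either. Class medians of TPM for early, squalene, late and regulator genes were 21.2, 18.7, 19.1 and 31.4 from the index-based table, and 74.6, 60.5, 61.3 and 111 when TPM was rescaled over nuclear protein-coding genes. With FPKM the squalene median was 20.7 and the regulator median 38.1. From the index-based table the late over early ratio was 0.906, Srebf1 over Srebf2 was 1.62, Insig1 over Insig2 was 1.505, Mbtps1 over Mbtps2 was 3.31, Lbr over Tm7sf2 was 1.10 against 0.732, and the main transcript held a median of 59.0% of its gene, against 74.8%. Members higher with separate bounds numbered 1 at a mean count of 1000 and 1 with centred bounds, against 2. At 1.5-fold, 2 members were apart, against 0. On the gene strand only, 11 members held CCAAT, against 21. Rescaled TPM and FPKM multiply every gene of a library by the same factor, so those moves are changes of unit. The count limit of 1000, the 1.5-fold limit and the search of 1 strand change what is counted. The cause of the other moves was not tested. The ratio of the libraries needs both, so it could not be made with 1 left out; class medians and ratios between genes within 1 library have the values given per replicate. No paired analysis was possible because both animals belong to 1 group. On the mean of both libraries, depth limits Pmvk (286 and 159 counts) and Mylip (321 and 420) most.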
